A study of Mus musculus with 6 samples.

Results

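Transcripts of 8 genes of cholesterol synthesis and its control by the transcription factor SREBP2 were followed in aortic roots of klotho-deficient and wild-type mice. The genes are Hmgcs1, Idi1, Fdps, Fdft1, Sqle and Lss, which encode enzymes, and Insig1 and Srebf2, which encode regulators. They were taken by name, and every probe set that the platform annotation assigns to a single gene symbol of these was used, which gave 20 of the 45037 probe sets tested and 8 of 18193 genes. Affymetrix mouse arrays were hybridised with RNA from 3 pools of klotho-deficient roots, homozygous for a mutant klotho allele, and from 3 pools of wild-type roots, homozygous for the normal allele. All mice were C57BL/6J albino and 6.0 to 6.5 weeks old. Each pool held the roots of 3 mice, with valve leaflets, annulus and adjoining ascending aorta, so there were 9 mice per genotype. The pools are the replicates, and p-values measure the spread between pools. The labels give neither the sex of the mice nor the hour of dissection, and neither the labels nor the files describe the mutant allele further.

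Cells make cholesterol from acetyl-CoA by way of mevalonate, isoprenoid diphosphates, squalene and lanosterol. The enzymes of this route are transcribed largely under SREBP2, a membrane-bound precursor that the escort protein SCAP carries from the endoplasmic reticulum to the Golgi when sterols are scarce, where proteases release the active factor. INSIG proteins hold SCAP back when sterols are plentiful, and INSIG1 is itself encoded by an SREBP target gene. In arterial tissue, cholesterol handling is best known from smooth muscle cells and macrophages that take up lipoproteins.

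None of the 8 genes passed the test between genotypes (limma on log2 signals, adjusted over all probe sets). Taking each gene by its brightest probe set, 6 were higher and 2 lower in klotho-deficient roots, with a median log2 difference (klotho-deficient minus wild type) of 0.26, beside 0.0030 over all 18193 genes. Fdft1, which encodes squalene synthase, was the gene of the 8 whose genotypes did not overlap, and its level was 1.41-fold that of wild type. Genotypes did not overlap in the higher direction for 1 of the 8 genes, against 6.63% of all genes, and in the lower direction for 0 of the 8, against 6.84%. Over all 45037 probe sets limma called 0 (0%) at a Benjamini-Hochberg adjusted p under 0.05, and 2416 (5.36%) had an unadjusted p under 0.05. None of the 8 genes had an unadjusted p under 0.05 on its brightest probe set, where 5.5% of all genes did, 2.87% in the higher and 2.63% in the lower direction. In bulk tissue, a lower or higher share of the cells that express a gene and a change of RNA per cell cannot be told apart.

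A few facts of the whole series bear on these values, which are array signals on a linear scale and compare arrays for a probe set, not probe sets or genes with each other. The arrays carry 27 probe sets against Bacillus sequences, and the highest signal among them, 161.8, served as the limit of background. Defining markers of the tissue were present above it, with 5 of 5 smooth muscle genes, 6 of 6 endothelial genes and 6 of 6 fibroblast genes, as were 8 of 8 cardiomyocyte genes, which mark adjoining heart muscle. Kl, the klotho gene, measured 138.3, 217.4 and 189.1 in klotho-deficient roots against 166.7, 184.7 and 202.1 in wild type on its brighter probe set, close to that limit, so it does not check the labels. Y-linked transcripts stood above background on klotho-deficient replicate 1 and all wild-type arrays, but not on klotho-deficient replicates 2 and 3. Kdm5d, for example, measured 2516.3, 16.1 and 5.8 on the klotho-deficient arrays, against 2745.5, 3267.9 and 2512.1 on the wild-type arrays. The pools therefore differed in Y-linked transcripts as well as in klotho genotype. Signal at the 3' end over that at the 5' end is a reading of RNA quality. For the Gapdh controls this ratio was 7.18 on wild-type replicate 3, beside 3.23 to 4.08 on the other 5 arrays. The beta-actin controls did not set wild-type replicate 3 apart, with a ratio of 1.10 there and a range of 1.07 to 1.18 across all arrays.

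**Figure D1:**
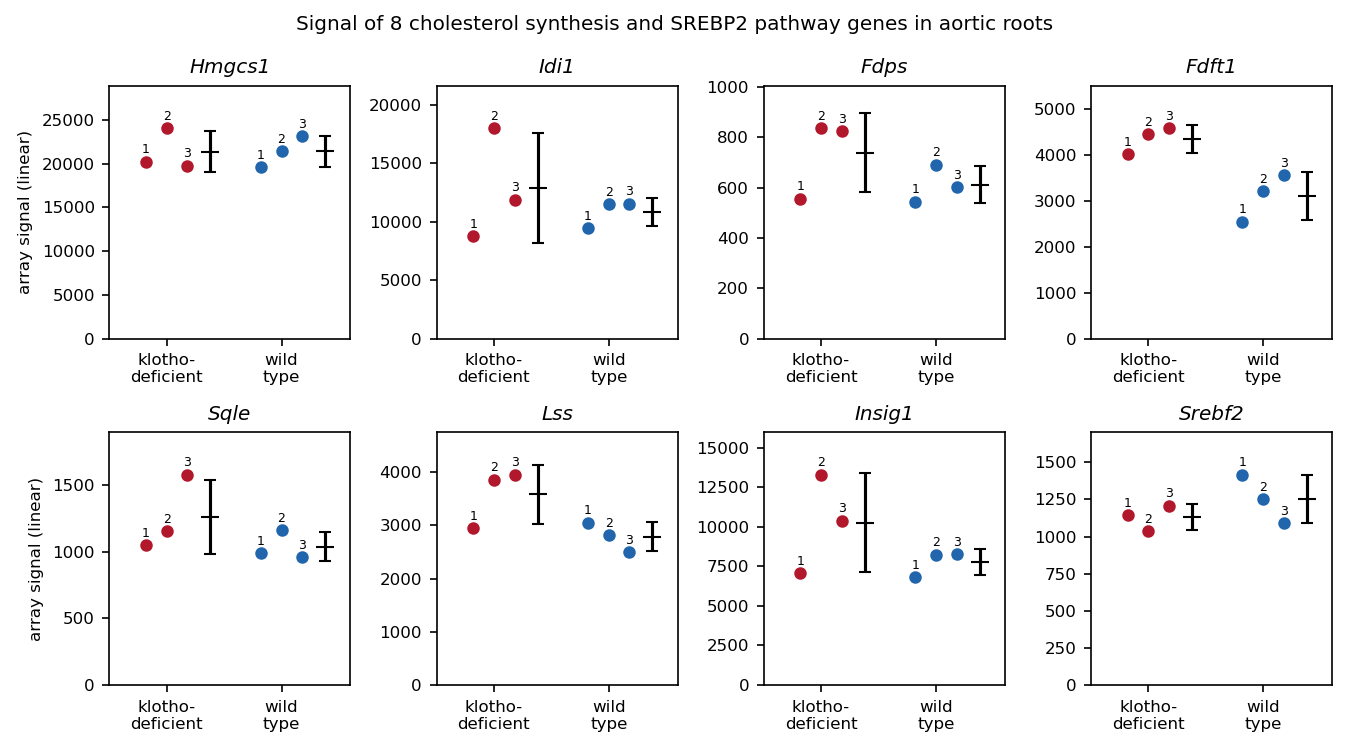
Array signal (linear scale from 0) of the brightest probe set of each of the 8 genes, with each dot an array numbered by replicate, and the bar its genotype's mean ± SD over 3 arrays. Genotypes are separate for Fdft1 and overlap for the other 7 genes, and klotho-deficient replicates 2 and 3 are the highest 2 arrays for Idi1, Fdps, Fdft1, Lss and Insig1.

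Hmgcs1 encodes the cytosolic HMG-CoA synthase, an early enzyme of the mevalonate route. Its brightest probe set (1433443_a_at) gave 20219.3, 24052.7 and 19768.9 on the klotho-deficient arrays, against 19601.5, 21393.6 and 23147.6 on the wild-type arrays. Both genotypes covered nearly the same range, and the log2 difference was 0.00 ± 0.20 (SE, limma), with a 95% interval of 0.711 to 1.40 on the fold scale. The other 4 Hmgcs1 probe sets had differences of 0.23 ± 0.29, 0.28 ± 0.26, 0.35 ± 0.22 and 0.65 ± 0.31, and the interval of the brightest covers the first 3 of these values. Probe set 1441536_at, the dimmest of them, measured 376, 352.9 and 348.2 on the klotho-deficient arrays and 157.6, 224.7 and 338.2 on the wild-type arrays. Its genotypes did not overlap, but wild-type replicate 1 was below the highest Bacillus control, and the adjusted p was 0.934.

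Idi1 encodes the isomerase that interconverts the C5 isoprenoid diphosphates. Its brightest probe set measured 8789.1, 18027.3 and 11889 in klotho-deficient roots and 9431.7, 11497.2 and 11551.1 in wild-type roots. Klotho-deficient replicate 1 was the lowest of the 6 arrays and replicate 2 the highest, so klotho-deficient values enclosed all wild-type values, with an SD of 4702 against 1208. The difference was 0.20 ± 0.31 and turned to -0.08 without klotho-deficient replicate 2. The other probe set, 1451122_at, was also highest on klotho-deficient replicate 2, with 5061.6, 8728 and 5651.7 in klotho-deficient roots against 4983.9, 5165.5 and 5709.3 in wild type (0.25 ± 0.27), but lowest on wild-type replicate 1.

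Fdps encodes farnesyl diphosphate synthase, whose product feeds both sterols and protein prenylation. It measured 556.9, 837 and 824.9 in klotho-deficient roots and 544.3, 691.2 and 602 in wild-type roots. Klotho-deficient replicates 2 and 3 exceeded every wild-type array while replicate 1 lay near the lowest, and the difference was 0.25 ± 0.25 (adjusted p = 0.966), with 0.15 and 0.16 when klotho-deficient replicate 2 or 3 was left out. The other Fdps probe set was below the highest Bacillus control on all 6 arrays, so it gives no level.

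Fdft1 encodes squalene synthase, the first enzyme committed to sterols. Its brightest probe set (1438322_x_at) gave 4004.4, 4441.7 and 4577.7 in klotho-deficient roots, against 2542, 3198.4 and 3556.1 in wild-type roots. The lowest klotho-deficient array exceeded the highest wild-type array, with a mean of 4341 ± 300 against 3099 ± 514 (SD, n = 3 each). The log2 difference was 0.50 ± 0.22, the 95% interval on the fold scale was 0.979 to 2.04, and the adjusted p was 0.926. A further probe set, 1448130_at, measured 1952.6, 1944.5 and 1543.7 in klotho-deficient roots against 1028.1, 1109.3 and 1281.3 in wild type. It did not overlap either and gave the largest difference among the 17 member probe sets above background on all arrays, 0.67 ± 0.21, or 1.59-fold with an interval of 1.11 to 2.28. Its unadjusted p was 0.0197 and its adjusted p 0.843 in limma, so it did not pass.

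The dimmer Fdft1 probe sets did not repeat this. Probe set 1438918_at went the other way, with 234.5, 256.8 and 446.5 in klotho-deficient roots and 625, 414 and 277.3 in wild-type roots (-0.47 ± 0.40). Here the genotypes overlapped and both were widely spread. Probe set 1438919_x_at was above background on 2 of 6 arrays and gave 0.26 ± 0.96. In Affymetrix names, the suffix _x marks probe sets with probes that also match other sequences, which applies to 2 of the 4 Fdft1 probe sets, while 1448130_at carries no such mark.

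Sqle encodes squalene epoxidase, which adds the oxygen needed for ring closure. It had a single probe set, at 1050.4, 1155.4 and 1580.4 in klotho-deficient roots and 988.7, 1165 and 961.6 in wild-type roots. Klotho-deficient replicate 3 was the highest array, and the other klotho-deficient arrays lay within the wild-type range. The difference was 0.26 ± 0.24, and 0.09 without klotho-deficient replicate 3.

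Lss encodes lanosterol synthase, which closes the sterol rings. Its 2 brighter probe sets had close mean signals and did not give the same picture of the overlap. Probe set 1420013_s_at measured 2945.5, 3856.6 and 3954.2 in klotho-deficient roots and 3047.9, 2817.3 and 2502.1 in wild-type roots (0.35 ± 0.22), with klotho-deficient replicate 1 inside the wild-type range. Probe set 1420014_at measured 3037.3, 4344.3 and 3361.2 against 2467.8, 2436.4 and 2347.9, klotho-deficient arrays first, and its genotypes did not overlap. That difference was 0.55 ± 0.22, or 1.46-fold, with an interval of 1.01 to 2.11, an unadjusted p of 0.0439 and an adjusted p of 0.918. A dimmer probe set, 1426913_at, gave 0.59 ± 0.43, with klotho-deficient replicate 1 (255.6) equal to wild-type replicate 1 (255.5) within the precision of the arrays.

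Insig1 encodes the endoplasmic reticulum protein that retains SCAP. Its single probe set gave 7057.7, 13302.5 and 10385.3 in klotho-deficient roots, against 6830.7, 8247.2 and 8253.7 in wild-type roots. Klotho-deficient replicates 2 and 3 exceeded all wild-type arrays and replicate 1 did not. The mean was 10248 ± 3125 against 7777 ± 820 (SD, n = 3 each), and the difference was 0.36 ± 0.29, with a fold interval of 0.788 to 2.08. Without klotho-deficient replicate 2 it was 0.14.

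Srebf2, the gene of SREBP2 itself, was the member that was lower on each of its probe sets. The brighter measured 1143.9, 1036.2 and 1207.6 in klotho-deficient roots and 1416.9, 1252 and 1088.8 in wild-type roots, and the dimmer 746.8, 1085.8 and 1266.1 against 1309.5, 1232.6 and 810.7. Genotypes overlapped on both, at -0.14 ± 0.21 and -0.12 ± 0.31. Transcript level does not report the cleavage that activates SREBP2, which these arrays did not measure.

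**Figure D2:**
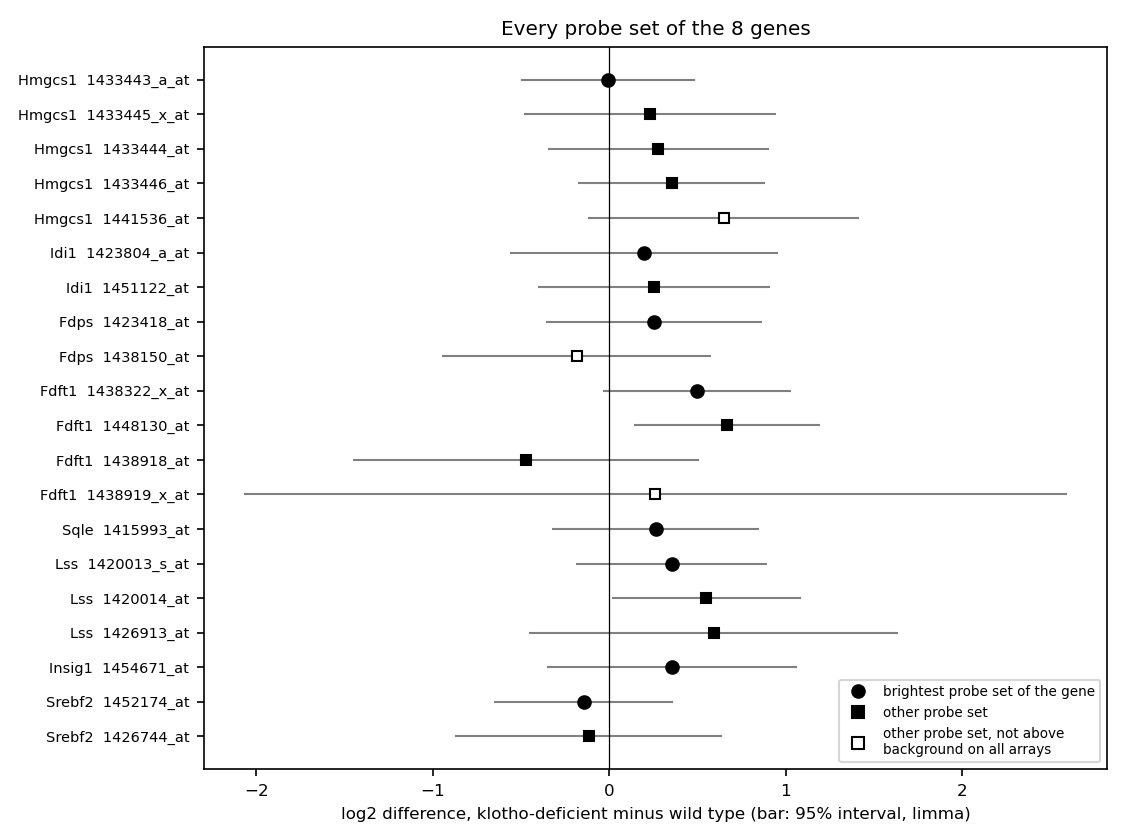
Log2 difference, klotho-deficient minus wild type, of all 20 probe sets of the 8 genes, with 95% intervals from limma; circles are the brightest probe set of each gene, squares the others, and open squares those not above background on all 6 arrays. The intervals of Fdft1 probe set 1448130_at and Lss probe set 1420014_at lie above 0 before adjustment, and the other 18 include 0.

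Across the 20 probe sets, 15 were higher and 5 lower in klotho-deficient roots, and 17 were above background on every array. Genotypes did not overlap in the higher direction on 4 of the 20, where 5.96% of all probe sets did, and in the lower direction on 0, where 5.71% did (11.7% in either direction). An unadjusted p under 0.05 was reached in the higher direction by 2 of the 20, against 2.86% of all probe sets, and in the lower direction by 0, against 2.5%. These 20 are not independent, since probe sets of a gene read the same transcripts, and 3 of the 4 without overlap belong to Fdft1 and Lss.

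Promoter sequences are shown for the members with the sterol response letters and for those with larger differences, because SREBP2 acts through short elements next to those of NF-Y and Sp1. A RefSeq promoter (GRCm38.p6) was found for 5 of the 8 genes, Hmgcs1, Idi1, Lss, Insig1 and Srebf2. The search covered the bases before the annotated start, 250 for each gene but Lss, where 210 precede the earliest annotated start, on both strands. Capitals mark the core of the sterol regulatory element, TCACCCCA, and the CCAAT box of NF-Y, which reads ATTGG on the strand shown. The sequences run 5′ to 3′ on the + strand at chr13:119690101-119690350 (Hmgcs1), chr15:82147019-82147268 (Srebf2), chr10:76531355-76531564 (Lss) and chr5:28071162-28071411 (Insig1).
Hmgcs1: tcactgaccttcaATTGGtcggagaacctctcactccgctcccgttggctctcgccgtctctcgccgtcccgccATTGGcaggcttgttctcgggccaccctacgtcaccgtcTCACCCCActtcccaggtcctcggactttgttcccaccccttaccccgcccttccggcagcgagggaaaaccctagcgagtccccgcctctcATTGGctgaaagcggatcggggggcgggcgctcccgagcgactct
Srebf2: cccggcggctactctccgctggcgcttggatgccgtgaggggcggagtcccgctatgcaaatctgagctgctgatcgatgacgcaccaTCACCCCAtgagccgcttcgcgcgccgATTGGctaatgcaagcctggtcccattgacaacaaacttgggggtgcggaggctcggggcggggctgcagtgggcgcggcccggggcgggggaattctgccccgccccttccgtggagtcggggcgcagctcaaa
Lss: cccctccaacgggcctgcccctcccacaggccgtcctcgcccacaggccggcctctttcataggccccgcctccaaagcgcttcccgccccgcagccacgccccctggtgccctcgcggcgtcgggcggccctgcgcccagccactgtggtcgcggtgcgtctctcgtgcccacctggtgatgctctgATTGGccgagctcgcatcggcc
Insig1: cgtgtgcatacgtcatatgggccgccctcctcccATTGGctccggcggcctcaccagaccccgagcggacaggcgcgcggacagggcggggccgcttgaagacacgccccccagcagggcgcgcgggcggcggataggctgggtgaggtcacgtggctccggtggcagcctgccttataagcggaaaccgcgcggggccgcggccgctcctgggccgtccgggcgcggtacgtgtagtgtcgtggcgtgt
The sterol element core was found in Hmgcs1, 137 bases before the end of the window, and in Srebf2, 162 bases before it, and 1.34% of 32851 promoters hold it in the same 250 bases. These letters were chosen after the promoters had been read. A CCAAT box was found in all 5 promoters, with 3 in Hmgcs1 and 2 in Idi1, against 33.8% of promoters. A GC box, GGGCGG, which Sp1 binds and which does not overlap the marked letters, was also in all 5, against 32.7%. The E box CACGTG was in Insig1 alone of the 5, against 6.02%. The presence of these letters describes the windows and not binding. Members with the sterol core, Hmgcs1 and Srebf2, had differences of 0.00 and -0.14 on their brightest probe sets. Lss, Insig1 and Idi1, with no match in these windows, had 0.35, 0.36 and 0.20. The other Hmgcs1 probe sets lay at 0.23 to 0.65. A relation between these letters and the differences was not tested.

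The members varied more among klotho-deficient pools than their mean difference from wild type. Relative to each gene's mean over the 6 arrays, the 8 genes averaged -0.14, 0.27 and 0.21 on klotho-deficient replicates 1, 2 and 3, against -0.20, -0.03 and -0.10 on wild-type replicates 1, 2 and 3 (log2). Klotho-deficient replicate 1 thus lay inside the wild-type range, and replicates 2 and 3 above it. Klotho-deficient replicate 2 was the highest array for 4 of the 8 genes and replicate 3 for 3, while Srebf2 was highest on wild-type replicate 1. Log2 values were more widely spread among klotho-deficient than among wild-type arrays for 6 of the 8 genes, beside 57.3% of all genes.

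Klotho-deficient replicates 2 and 3 are the arrays without Y-linked transcripts. Both exceeded the other 4 arrays for 5 of the 8 genes, Idi1, Fdps, Fdft1, Lss and Insig1, where 7.56% of all genes had that order. Hmgcs1, Sqle and Srebf2 did not follow that division. The 8 genes were chosen with earlier results of these data known and are not independent, so this count is not a test. In the lists below, that order was held by 1 of 11 other enzymes, 0 of 6 SREBP processing genes and 0 of 5 other SREBP2 targets. It was held by 2 of 11 efflux, 1 of 8 isoprenoid and 0 of 11 fatty acid genes. With the arrays that hold Y-linked transcripts alone, klotho-deficient replicate 1 against 3 wild-type arrays, the median difference of the 8 genes was -0.10 in place of 0.26. The klotho-deficient side is then a single array, assumed to vary like the wild-type arrays, from which the SE and intervals come. In that comparison Fdft1 stood at 0.38 ± 0.33, Lss at 0.08 ± 0.28, Sqle at 0.02 ± 0.29, Insig1 at -0.13 ± 0.29, Fdps at -0.13 ± 0.29 and Idi1 at -0.29 ± 0.29. Klotho-deficient replicate 1 was within the wild-type range for 6 of the 8 genes, below it for Idi1 and above it for Fdft1. Fdft1 probe set 1448130_at stood at 0.78 and Lss probe set 1420014_at at 0.33 there. Every wild-type array holds Y-linked transcripts, so on klotho-deficient replicates 2 and 3 their absence, the genotype and the pool cannot be told apart.

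**Figure D3:**
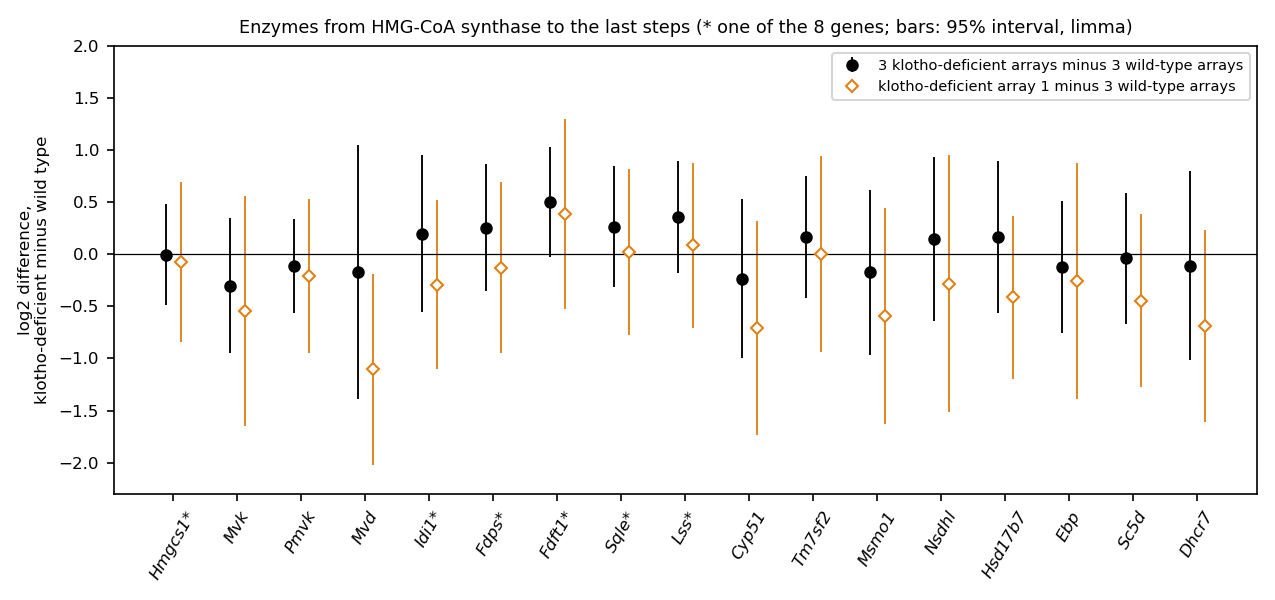
Log2 difference, klotho-deficient minus wild type, of 17 enzymes in the order of the route, on the brightest probe set of each; black circles use all 6 arrays, open diamonds klotho-deficient array 1 against the 3 wild-type arrays, all of which hold Y-linked transcripts, and bars are 95% intervals from limma. Fdft1 lies highest in both comparisons; Hmgcs1, Mvk, Pmvk, Mvd, Cyp51, Msmo1, Ebp, Sc5d and Dhcr7 lie below 0 in both, and the single-array comparison of Mvd is the one whose interval excludes 0.

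The other enzymes of the route had a median difference of the opposite sign. The 11 measured all had a mean signal above background, with 3 higher and 8 lower in klotho-deficient roots, a median of -0.12, and 0 past the threshold. On the brightest probe sets no overlap-free gene was among them, where 13.5% of all genes had no overlap in either direction. Upstream of Idi1, Mvk, mevalonate kinase, measured 485.5, 618 and 626.7 in klotho-deficient roots against 529, 855.7 and 782 in wild type (-0.30 ± 0.27). The dimmer probe sets of Mvk and Mvd gave -0.82 ± 0.81 and 0.04 ± 0.36, the latter opposite in sign to the brightest. On their brightest probe sets the neighbours of Mvk, the next kinase Pmvk and the decarboxylase Mvd, gave -0.12 ± 0.19 and -0.17 ± 0.50. Mvd was dim, at 152, 587.5 and 276.1 in klotho-deficient roots against 297.7, 294.4 and 399.5 in wild type, and for klotho-deficient replicate 1 alone, where it was below background, the difference was -1.11 (interval -2.02 to -0.19, limma adjusted p = 0.719).

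Downstream of Lss, Cyp51, which removes the 14-methyl group of lanosterol, measured 2760.9, 5138.7 and 3944.7 in klotho-deficient roots and 3679.8, 4319.7 and 5733.9 in wild-type roots (-0.23 ± 0.31). Its other probe sets gave 0.29 ± 0.41 and -0.15 ± 0.29, so they did not share a sign. Msmo1, Nsdhl and Hsd17b7, which remove the C4 methyl groups, gave -0.18 ± 0.33, 0.14 ± 0.32 and 0.16 ± 0.30. The dimmer Msmo1 probe set gave 0.12 ± 0.36, opposite in sign to the brightest. Hsd17b7 measured 1483.6, 2817.8 and 2598.7 in klotho-deficient roots against 2150.5, 2010.8 and 1792.3 in wild type, and was the one gene of these 11 for which replicates 2 and 3 both exceeded the other 4 arrays. Its dimmer probe sets gave 0.28 ± 0.29, -0.54 ± 0.64 and 1.89 ± 0.77, and were above background on 6, 3 and 4 arrays. For the reductase, isomerase and desaturase genes Tm7sf2, Ebp and Sc5d the differences were 0.16 ± 0.24, -0.12 ± 0.26 and -0.04 ± 0.26. The dimmer Sc5d probe sets gave 0.12 ± 0.20 with overlap and -0.54 ± 0.31 without overlap. Dhcr7, the reductase of the last step, gave -0.11 ± 0.37, with 568.6, 769.6 and 1400.9 in klotho-deficient roots against 813.4, 1119.8 and 845.1 in wild type.

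On klotho-deficient replicate 1 these 11 enzymes averaged -0.44 relative to their 6-array means, against 0.24 and 0.09 on klotho-deficient replicates 2 and 3. The wild-type arrays gave -0.06, 0.11 and 0.06. That array was therefore the lowest for the wider route, below every wild-type array, and without it the list's median was 0.16 in place of -0.12. With the members, replicate 1 was low within klotho-deficient roots too, though not below wild type.

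Genes that control SREBP processing included the escort protein gene Scap, which measured 683.6, 582.7 and 614.6 in klotho-deficient roots and 798.5, 887.4 and 906.8 in wild-type roots. All klotho-deficient arrays were below all wild-type arrays, at a difference of -0.46 ± 0.19, and limma gave an adjusted p of 0.926. A second Scap probe set was above background on 1 array and gave 0.04 ± 0.61. Mbtps2, the protease that completes SREBP release, measured 1882.8, 1427.7 and 2035.9 against 1377.6, 1590.6 and 745.9, klotho-deficient first, with overlap (0.58 ± 0.35). Insig2, a relative of Insig1, gave 0.23 ± 0.22, and Srebf1, the gene of the related factor for fatty acid synthesis, 0.14 ± 0.29. Of the 6 measured genes of this list, 4 were higher and 2 lower, with a median of 0.09 and 0 past the threshold.

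Among 5 measured genes listed as other SREBP2 targets, 2 were higher and 3 lower, with a median of -0.09 and 0 past the threshold. Lpin1, a phosphatidate phosphatase of lipid synthesis, measured 1086.5, 949 and 1459.1 in klotho-deficient roots and 671.7, 736.1 and 805.7 in wild-type roots, without overlap (0.64 ± 0.24, adjusted p = 0.91). Its other probe set gave 0.73 ± 0.39 with overlap. Stard4, a cytosolic sterol carrier, gave 0.31 ± 0.25, Acss2, an acetyl-CoA synthetase, -0.33 ± 0.24, and Tmem97, a sterol-binding membrane protein, -0.36 ± 0.23.

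Several genes of cholesterol efflux were higher in klotho-deficient roots without passing the test. Abca1, the transporter that loads apolipoprotein A-I and a target of the sterol-sensing LXR receptors, gave 4565.6, 4757.7 and 5067.5 in klotho-deficient roots, against 3140.8, 3584 and 2634.8 in wild-type roots. Its genotypes did not overlap on any of its 3 probe sets, which gave 0.63 ± 0.21, 0.51 ± 0.19 and 0.54 ± 0.22, with adjusted p of 0.875, 0.91 and 0.919. With klotho-deficient replicate 1 alone against wild type, Abca1 stood at 0.56 ± 0.32, Abcg1 at 0.43 ± 0.29 and Mylip at 0.35 ± 0.30. Abcg1, the transporter that loads HDL and also an LXR target, measured 761.8, 694.8 and 1146.8 against 548.5, 509.9 and 644, klotho-deficient first, without overlap (0.58 ± 0.27), and its dimmer probe set gave 0.20 ± 0.35 with overlap. Mylip, an LXR-induced ubiquitin ligase, measured 1993.5, 1724.3 and 3425.7 against 1343, 1692.7 and 1693.2 in the same order (0.54 ± 0.31), so its replicate 2 was just above the highest wild-type array. Without klotho-deficient replicate 3 the difference was 0.24 for Mylip and 0.37 for Abcg1. Nr1h3, which encodes an LXR receptor, gave 0.09 ± 0.22 with overlap. The part of LXR in these differences was not tested.

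Ch25h, which makes the oxysterol 25-hydroxycholesterol, an inhibitor of SREBP processing, gave 808.3, 1868.6 and 1556 in klotho-deficient roots against 726.2, 407.1 and 596.3 in wild type. The genotypes did not overlap, at 1.25 ± 0.40 (adjusted p = 0.843), and the difference was 0.53 ± 0.43 for klotho-deficient replicate 1 against wild type. The list held 11 measured genes, of which 8 were higher, 3 lower and 0 past the threshold, at a median difference of 0.09. Genotypes did not overlap in the higher direction for 5, Abca1, Abcg1, Mylip, Ch25h and Cyp27a1 (0.15 ± 0.18), against 6.63% of all genes. The list was chosen with earlier results of these data known, so this count is not a test of the list. The lysosomal cholesterol genes Npc1, Npc2 and Lipa overlapped, at 0.09 ± 0.21, -0.13 ± 0.21 and 0.06 ± 0.21.

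Among 8 measured genes of the non-sterol isoprenoid branch, which uses the product of Fdps, 5 were higher and 3 lower, with a median of 0.05 and 0 past the threshold. Fnta, the shared subunit of protein prenyltransferases, measured 17435.8, 16272.2 and 18057 in klotho-deficient roots against 19543.3, 18931.4 and 26603.1 in wild type, without overlap (-0.31 ± 0.22, and -0.31 ± 0.21 on its other probe set). Without wild-type replicate 3, the array with the high Gapdh ratio, the difference on the brightest probe set was -0.16. Fntb, its partner in farnesylation, was dim and widely spread, at 1.13 ± 0.63. Pggt1b and Coq2, of geranylgeranylation and ubiquinone synthesis, gave 0.38 ± 0.34 and -0.19 ± 0.19.

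Fatty acid synthesis genes, which depend more on SREBP1, were 4 higher and 7 lower among 11 measured, with a median of -0.03 and 0 past the threshold. Thrsp, a lipogenic protein of adipose tissue and liver, measured 2919.1, 3465.7 and 1686.3 in klotho-deficient roots against 5870.4, 5202.5 and 3675.7 in wild type, without overlap (-0.91 ± 0.35, adjusted p = 0.911). Its dimmer probe sets gave -0.21 ± 0.36 and 0.26 ± 0.27, so the probe sets disagree in sign. Without klotho-deficient replicate 3 the brightest gave -0.60. Scd1, Acly and Fads1, of desaturation and acetyl-CoA supply, gave -0.23 ± 0.25, -0.12 ± 0.21 and 0.07 ± 0.21.

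Markers of neighbouring cell types varied over the same arrays. The 8 cardiomyocyte genes averaged -0.32, 0.51 and -0.04 on klotho-deficient replicates 1, 2 and 3, against -0.54, 0.12 and 0.28 on the wild-type arrays, and their summed signal was 74370 to 108609 in klotho-deficient and 63766 to 99392 in wild-type roots. Both wild-type replicate 1 and klotho-deficient replicate 1, the lowest arrays for the members, were lowest for these. Of 8 listed adipocyte genes 6 were measured, and they averaged 0.41, 0.31 and -1.16 against 0.57, 0.34 and -0.47, with Lep and Ucp1 above background on 4 arrays each. The summed adipocyte signal was 21550 to 37944 in klotho-deficient and 31131 to 38598 in wild-type roots.

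Schwann cell genes, of a cell type that makes much cholesterol for myelin, were measured for 4 of 6 listed and summed to 14900 to 18173 against 17938 to 20129, klotho-deficient first. Such sums follow the brightest genes, here Pmp22 (means 13319 and 14856), as Fabp4 for the adipocyte and Tnnt2 for the cardiomyocyte genes. Of the Schwann cell genes, Sox10 was higher in klotho-deficient roots (0.44 ± 0.37) and 3 were lower. Macrophage genes, 5 of 5, summed to 19535 to 24316 against 17685 to 24665, and cell cycle genes, 4 of 5, to 2989 to 5444 against 3133 to 5017. Endothelial genes, 6 of 6, summed to 13891 to 16637 against 18054 to 28007, without overlap, the highest being wild-type replicate 3. Tek had the highest means among them (5924 and 9235). Of the 6, 5 were lower in klotho-deficient roots, and 4 were lower without overlap, against 6.84% of all genes. Pecam1 (0.07 ± 0.27) and Cdh5 (-0.59 ± 0.56) overlapped. The part of these cell types in the values of the members was not tested.

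**Figure D4:**
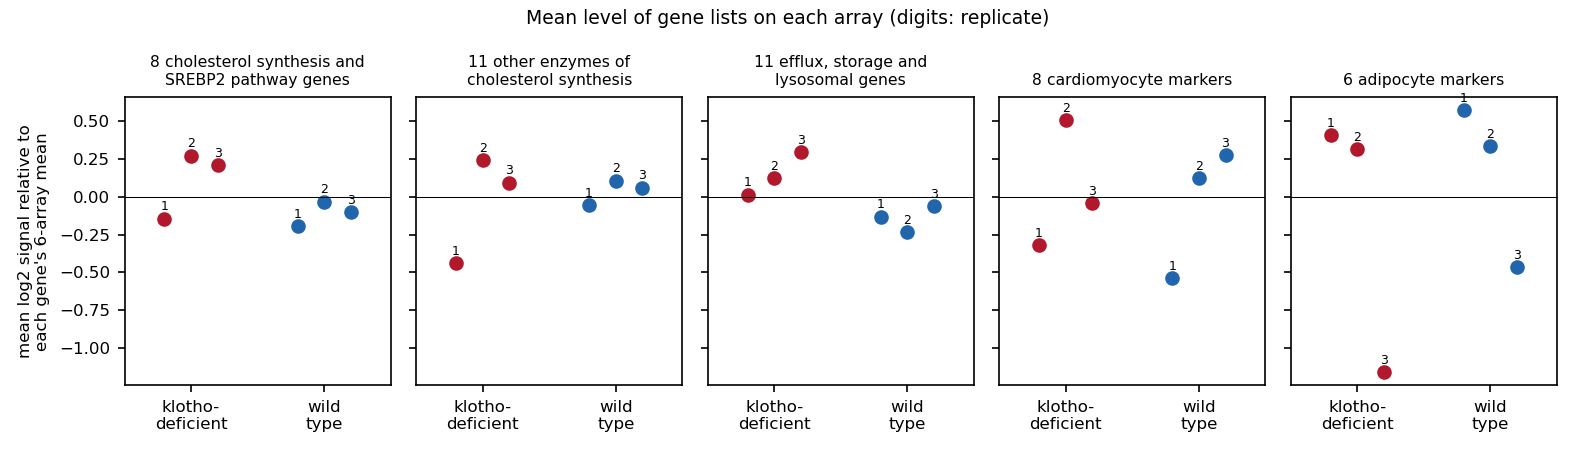
Mean log2 signal on each array, relative to each gene's mean over the 6 arrays, for the 8 genes, 11 other cholesterol enzymes, 11 efflux, storage and lysosomal genes, 8 cardiomyocyte markers and 6 adipocyte markers; each dot is an array, numbered by replicate. Klotho-deficient replicates 2 and 3 stand above wild type for the 8 genes, and replicate 1 is lowest of all for the other enzymes at -0.44.

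Profiles over the 6 arrays were also compared with those of other genes, by the root mean square difference in centred log2 signal from the mean profile of the 8 genes. Among 12142 genes above background on all arrays, the nearest were Ifnz (0.03), Rbm19 (0.05), Klhl12 (0.06), Utp6 (0.06) and Lrrc4b (0.06). The members themselves lay at 0.09 for Fdps, 0.13 for Lss, 0.16 for Sqle, 0.17 for Insig1 and Hmgcs1, 0.19 for Fdft1, 0.20 for Idi1 and 0.28 for Srebf2. Among the genes ranked, whose median distance was 0.304, 29 were closer than Fdps and 5061 (41.7%) closer than Srebf2, the farthest member. Each member is part of the mean profile, which lowers its own distance, while the ranked genes are not. Distance from a profile of small differences is also low for genes that vary little.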

How the data were processed

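The deposited values are intensities on a linear scale for 45101 probe sets and lay between 0.1 and 131884.9. Per the labels' protocols, Trizol RNA was amplified with a NuGEN Ovation Pico kit and labelled with biotin. RMA is named in the submitters' processing notes, without version. The mean signal, trimmed by 2% on both sides, came to 1500.01 on each array, so the deposited intensities share a common scale. Array medians ran from 425.6 to 556.6, so the arrays share a trimmed mean and not a distribution. Which step set the scale, and how it relates to the RMA named, is not stated. Values were log2-transformed without an offset, and 64 control probe sets were left out. The genotype comparison used limma 3.58.1 under R 4.3.3 (lmFit and eBayes, two-sided) over 45037 probe sets, with Benjamini-Hochberg adjustment over all of them and a threshold of 0.05. A gene was represented by its brightest probe set among 34945 with a single symbol. Errors are limma SEs unless named SD. The members, gene lists and motifs were chosen with earlier results of these data known. Named genes were all members and other cholesterol enzymes, up to 4 genes of smallest p per list, and the 5 nearest profiles; other list genes were named after their values were seen. The fit was tested on simulated data. Figures were drawn with matplotlib 3.10.9. The number of arrays limits the precision. Replicate numbers were not taken as pairs, since the labels state no pairing. Deviations of same-numbered arrays correlated at 0.21, 0.06 and 0.27, and those of differently numbered arrays at -0.27 to 0.16. These values do not decide whether the numbers mark pairs, and a fit with a replicate block is given below.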

Additional observations from a re-analysis of the deposited data

How the results depend on the processing

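Over 17 other settings 0 of the 8 genes passed on the brightest probe set, and 0 of the other 12 probe sets passed in the 14 or 15 settings that test them, the lowest adjusted p being 0.285 (Fdft1 probe set 1448130_at). Fdft1, Lss, Sqle and Srebf2 kept their direction on the brightest probe set. As the mean of their probe sets, Fdft1 stood at 0.24, Fdps at 0.035, Idi1 at 0.23, Lss at 0.50 and Srebf2 at -0.13. Probe sets called over the whole table numbered 1 with dim probe sets left out, 1 with an offset of 100, 2 with a trended and robust prior, and 2416 at an unadjusted p under 0.05, against 0. The replicate block left 0 calls, with Fdft1 at 0.50 (adjusted p = 0.802). With the arrays holding Y-linked transcripts only, or a covariate for the others, which gives the same values by construction, the median of the 8 genes was -0.10, Fdps -0.13, Idi1 -0.29, Insig1 -0.13, Hmgcs1 probe sets 1433444_at and 1433445_x_at -0.051 and -0.084, Idi1 probe set 1451122_at -0.060 and Lss probe set 1426913_at -0.19. Hmgcs1 turned to 0.011 with array weights, 0.045 with quantile normalization and 0.30 as the mean of its probe sets, and Fdft1 probe set 1438919_x_at to -0.082 with array weights, where the median of the 8 genes was 0.074. Leaving out single arrays gave -0.094 to 0.054 for Hmgcs1, -0.077 to 0.44 for Idi1, -0.42 to 1.11 for Fdft1 probe set 1438919_x_at, -0.41 to 0.063 for Fdps probe set 1438150_at, -0.33 to 0.10 for Srebf2 probe set 1426744_at and, for the median, 0.15 without klotho-deficient replicate 2 to 0.44 without klotho-deficient replicate 1. The cause of these turns was not tested.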
